A study of Drosophila melanogaster with 4 samples.

Results

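Dpr, DIP, Beat and Side proteins are 4 families of immunoglobulin superfamily molecules on the surface of fly neurons and their targets. The 54 protein-coding genes of these families, of 13945 on the main chromosome arms, were taken by their gene symbols: 21 Dpr, 11 DIP, 14 Beat and 8 Side genes. Their chromatin was examined for binding of exex, the fly homologue of the motor neuron homeodomain factor HB9, by anti-GFP chromatin immunoprecipitation and sequencing. All 4 libraries came from whole embryos of 6 to 24 h of 1 transgenic Drosophila melanogaster line, in which a C-terminal GFP tag was fused to exex. They were labelled as biological replicates, and the series has 1 group, with no second genotype or treatment. The labels do not say what drives the fusion or whether the native exex gene is intact, and whole embryos mix exex cells with all others.

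Dpr proteins, named after defective proboscis extension response, bind DIP (Dpr-interacting) proteins across the space between cells, and most Dpr and DIP proteins are made by neurons. Beat proteins (beaten path) are receptors and adhesion molecules of axons, and Side proteins (sidestep) are their partners on other cells. In the embryo, Side on muscles and other cells attracts motor axons that carry Beat-Ia, which also lets axons leave their bundle. DIP-alpha on motor neurons binds Dpr6 and Dpr10, and the Dpr10 made by muscles guides the choice of target.

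Depth is unknown, as the lists of peaks carry no reads. Each replicate list held 30000 peaks, of which 23.2% in replicate 4 and 39.6% to 46.2% in replicates 1 to 3 had a q-value under 0.01. The authors' list of reproducible peaks, filtered by irreproducible discovery rate (IDR), held 7909 peaks, and each replicate was also represented by as many of its highest-signal peaks. No peak was identical between any pair of replicates. A peak was counted for a gene when its summit, the position of highest signal, lay in the gene body or within 5000 bp of it. Where a replicate's rank is given for an IDR summit, it is the rank by signal of the strongest peak of that replicate overlapping the IDR peak, so summits of 1 called region can share it.

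Sequences are shown for the 6 members with the strongest summits in their own body or own promoter, 1 summit each, so that the DNA at the places described can be read. An own promoter means up to 1000 bp from a transcription start site (TSS) of the gene. Each is the plus strand of dm6 (RefSeq, Release 6) from 50 bases before to 50 after the summit. Capitals mark TAATTA, a core bound by many homeodomain proteins, and CTTATC or its reverse complement GATAAG. They lie at chr3L:10088619-10088719 for dpr6, chr2L:15912104-15912204 for beat-Ib, chrX:7908691-7908791 for dpr14, chr3L:857788-857888 for dpr20, chr3R:27407203-27407303 for side and chr3R:13454094-13454194 for side-IV.
dpr6: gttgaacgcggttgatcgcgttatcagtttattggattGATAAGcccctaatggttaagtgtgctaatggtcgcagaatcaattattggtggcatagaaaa
beat-Ib: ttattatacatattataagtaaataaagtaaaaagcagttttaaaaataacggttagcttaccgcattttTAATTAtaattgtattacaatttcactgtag
dpr14: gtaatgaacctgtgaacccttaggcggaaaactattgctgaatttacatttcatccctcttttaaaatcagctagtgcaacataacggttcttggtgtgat
dpr20: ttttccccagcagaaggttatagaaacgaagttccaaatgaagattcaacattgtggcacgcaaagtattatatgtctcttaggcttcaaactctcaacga
side: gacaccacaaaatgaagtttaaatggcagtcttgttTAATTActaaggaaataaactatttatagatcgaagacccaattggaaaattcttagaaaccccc
side-IV: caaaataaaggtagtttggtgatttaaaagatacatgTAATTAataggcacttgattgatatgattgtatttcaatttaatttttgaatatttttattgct
The beat-Ib, side and side-IV sequences each hold 1 TAATTA, the dpr6 sequence holds 1 GATAAG, and those of dpr14 and dpr20 hold neither. GC content was 20.8% in the beat-Ib sequence, 21.8% in side-IV, 32.7% in side, 38.6% in dpr14 and dpr20 and 40.6% in dpr6.

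Most Dpr, DIP, Beat and Side genes had no exex peak in the IDR list. IDR summits were counted for 15 of the 54 genes, or 27.8%, while 55.4% of all protein-coding genes had at least 1. The members are long, with a median of 36.2 kb against 2.17 kb over all genes, and long genes hold a summit more often. Among the 100 other genes nearest in length to each member, 68.0% on average had an IDR summit, a difference of -40.2 percentage points. The like-length share ranged from 55% to 80% over the single members. Members held 0.667 IDR summits on average and their like-length genes 3.01. Of the 54 members, 43 had fewer summits than the median of their like-length genes.

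The same held in each library. Among the highest peaks of replicates 1, 2, 3 and 4, summits lay at 15, 17, 12 and 10 members, a mean of 25.0% ± 5.76 (SD, n = 4). The shares of all genes were 55.0%, 53.2%, 55.3% and 60.3%, and those of like-length genes 68.1%, 66.9%, 66.4% and 68.4%. Members lay below like-length genes in 4 of 4 replicates, with a mean difference of -42.5 ± 6.15 percentage points (SD, n = 4). An exact two-sided sign-flip permutation test over the replicates gave p = 0.125, the smallest that 4 replicates allow, so no effect could have passed the usual threshold. That test speaks only to agreement between the 4 libraries for this fixed list of genes. It cannot show whether other lists of genes would differ as much. Replicate 4 had the fewest members with a summit and the most genes overall. When only IDR peaks shared by the highest peaks of the other 3 replicates were kept, the members with a summit numbered 7, 7, 8 and 12 without replicates 1, 2, 3 and 4. Of all genes, 45.2%, 45.4%, 43.9% and 46.1% had one. Those lists were also shorter, at 5339 to 5982 peaks, and like-length genes stood at 56.6% to 58.8%.

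**Figure D1:**
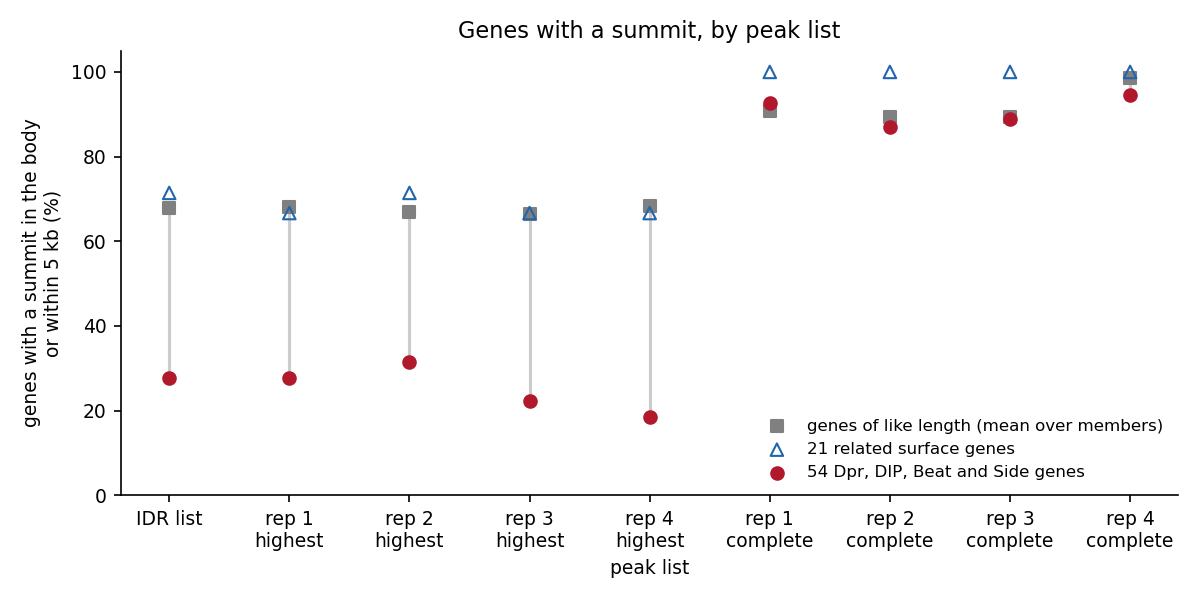
Percent of genes that hold a summit, counting 5 kb on each side (vertical axis), in the IDR list, in the highest peaks of each replicate and in the complete list of each replicate (horizontal axis), for the 54 members (circles), the mean of their like-length genes (squares) and 21 related surface genes (triangles). Members lie at 18.5% to 31.5% in the first 5 lists, below the like-length genes at 66.4% to 68.4%, and at 87.0% to 94.4% in the complete lists.

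Members without an IDR summit were found in each family. They were 14 Dpr genes (dpr1, dpr3, dpr4, dpr5, dpr7 to dpr13, dpr15, dpr16 and dpr21) and 8 DIP genes (DIP-beta, DIP-gamma, DIP-epsilon, DIP-zeta, DIP-eta, DIP-theta, DIP-kappa and DIP-lambda). The others were 12 Beat genes (all but beat-Ib and beat-Vc) and 5 Side genes (side-II, side-V, side-VI, side-VII and side-VIII). Summits were counted for 7 of 21 Dpr genes, where like-length genes gave 66.6%, and for 3 of 11 DIP genes, against 67.3%. Beat genes had the lowest share, 2 of 14 against 68.6%, and Side genes the highest, 3 of 8 against 71.2%. With 8 to 21 genes per family, these counts differ by few genes and the difference between families was not tested. In the highest peaks of replicates 1 to 4, summits lay at 7, 6, 6 and 5 Dpr genes, 3, 4, 2 and 1 DIP genes, 2, 4, 2 and 1 Beat genes and 3, 3, 2 and 3 Side genes.

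**Figure D2:**
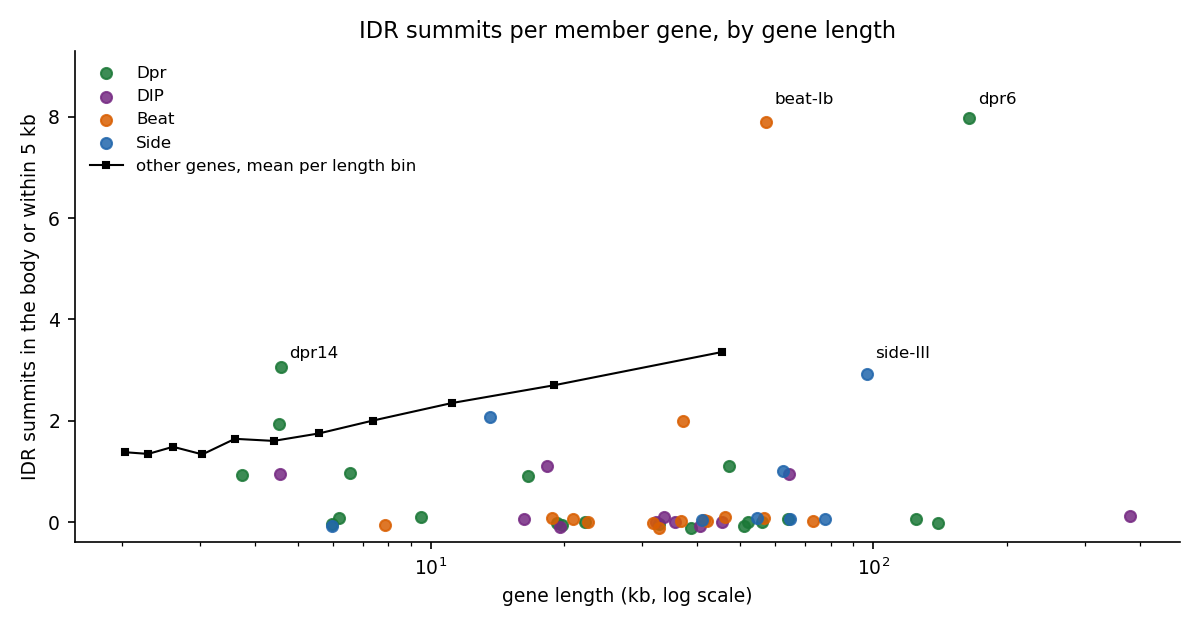
Number of IDR summits per gene, 5 kb on each side included (vertical axis, points moved by up to 0.12 so that they do not hide each other) against gene length (kb, log scale) for the 54 members, coloured by family, with the mean over the other genes in bins of length (black squares, bins over 2 kb). Most members lie at 0, below the line, while dpr14 with 3 summits and dpr20 with 2 lie above it. The genes dpr6 and beat-Ib, with 8 summits each, lie past the right end of the line and above its level there.

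Over all members, 36 distinct IDR summits in 32 called regions were counted, each for 1 member. Of these, 21 lay in the body of the member, 20 of them in introns and 1 in a coding exon, and 15 lay outside it. Only 2 lay within 1000 bp of a TSS of the member, while 17 lay within 1000 bp of the TSS of another gene. For 6 summits the nearest TSS belonged to a member. Within 1000 bp of any TSS lay 18 of the 36 summits, or 50%, against 54.9% of all 7909 IDR summits. The median rank by signal was 4164.5, close to 3955 over the IDR list, and ranks ran from 20 to 7904. For 9 of the 15 members every summit lay outside the gene body. With the body alone, 6 members had a summit, or 11.1%, against 18.1% of all genes and 49.8% of like-length genes.

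Start sites of the members were far from IDR summits. An IDR summit lay within 1000 bp of an own TSS in 28.2% of all genes and 38.5% of like-length genes, but in 2 of the 54 members, dpr14 and dpr20. The median distance from the nearest own TSS to an IDR summit was 38930 bp over the members and 5025 bp over all genes. The like-length medians lay between 883.5 and 5841 bp, and 52 of 54 members exceeded theirs, the exceptions being dpr14 and dpr20. Medians were 21100 bp for Dpr, 26959.5 bp for Side, 56840 bp for DIP and 60576.5 bp for Beat genes. DIP-lambda and dpr21 stood apart, with 5371575 and 2631844 bp, and apart from 2 summits at DIP-lambda in replicate 4 no complete list held a summit at either. Both lie in 1 stretch of arm 2R. The nearest IDR summit was 4992495 bp from the DIP-lambda body, with dpr21 in between.

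**Figure D3:**
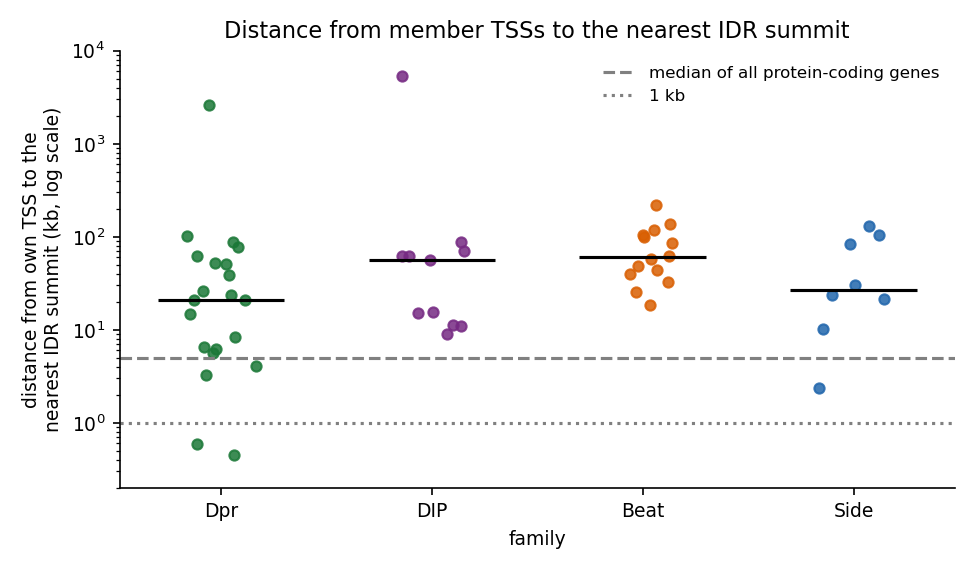
Distance from the nearest own TSS to the nearest IDR summit (kb, log scale) for each member by family, points spread sideways, with the family median as a black bar, the median of all protein-coding genes as a dashed line and 1 kb as a dotted line. Only dpr14 and dpr20 lie below 1 kb, and every family median lies above the dashed line.

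Among Dpr genes, dpr6, which encodes a partner of DIP-alpha, held the most summits. It spans 164710 bp (FBgn0040823, chr3L:9974651-10139360, plus strand) and had 8 intronic IDR summits, all within 8946 bp and at least 114018 bp from its own TSSs. Each of the 8 lay 60 to 794 bp from the TSS of a gene nested in dpr6 on the opposite strand. The nested genes were CG14160, CG32053, CG32054 and Srg2, and the remaining nested gene, CG42826, had its nearest summit 3266 bp from its TSS. The strongest of the 8, at 10088669, had IDR rank 321 and ranks of 247, 494, 397 and 271 in replicates 1 to 4. All 8 were covered by the highest peaks of every replicate, but they lay in 6 called regions, and summits of 1 region share the overlapping peaks. The 100 genes nearest to dpr6 in length ran from 88775 to 225026 bp, and 19% of them had as many summits or more. CTTATC was found within 100 bp of 6 of the 8 summits and TAATTA of 2.

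The other Dpr genes with summits were mostly short and had their summits in the sequence around them. The summit of dpr14 (FBgn0029974, chrX:7903704-7908286, minus strand) at 7908741 lay 455 bp from its TSS and 190 bp from that of spidey, a gene of lipid synthesis. It had IDR rank 1584 and ranks of 2388, 1475, 1958 and 1170 in replicates 1 to 4, so all 4 replicates held it. TAATTA and CTTATC both lay within 100 bp of it, outside the shorter sequence shown. A further 2 summits counted for dpr14 lay 129 and 331 bp from the TSS of snz, a sorting nexin gene. For dpr20 (FBgn0035170, chr3L:852720-857248, minus strand), the summit at 857838 lay 590 bp upstream of its TSS, and 6492 bp from the TSS of the nearest other gene, Dci. That summit ranked 4279 in the IDR list and 2831, 4123, 6566 and 8747 in replicates 1 to 4, so it was outside the highest peaks of replicate 4. The stronger dpr20 summit lay 238 bp past the 3' end of the gene, in the body of Dci, with IDR rank 983 and ranks of 763, 1039, 1304 and 1017. The summit counted for dpr19 lay 2188 bp past its 3' end and 170 bp from the TSS of CG5096, with IDR rank 236 and ranks of 303, 227, 160 and 836. All 4 replicates thus placed it among their strongest peaks. For dpr2, dpr17 and dpr18 the summits lay 612 bp from the TSS of Tmem214, 179 bp from that of ATP8B, a phospholipid flippase gene, and 1195 bp from that of Nipsnap. The dpr2 summit had IDR rank 4775 and ranks of 4862, 3941, 6410 and 3662, within the highest peaks of every replicate. That of dpr18 had IDR rank 6031 and ranks of 6666, 7173, 4977 and 12328, outside them in replicate 4 only. That of dpr17 had IDR rank 7762 and ranks of 5264, 12524, 10702 and 10240, inside them in replicate 1 only.

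The 3 DIP genes with a summit had 1 each. The summit counted for DIP-iota ranked 20 in the IDR list and 27, 23, 49 and 6 in replicates 1 to 4. It lay 4434 bp past the 3' end of DIP-iota, inside CG11050 and 1013 bp from its TSS. The summit of DIP-alpha, the receptor for Dpr6 and Dpr10 on motor neurons, lay in its own intron (FBgn0052791, chrX:3507245-3571649, minus strand) at 3546307. It was 15642 bp from a DIP-alpha TSS and 11505 bp from the nearest TSS, that of ppk8. It ranked 7142 in the IDR list and 7348, 7075, 7517 and 16808 in replicates 1 to 4, so replicate 4 was lowest by far. The DIP-delta summit lay 4919 bp past the 3' end of the gene, just inside the window of 5000 bp. It had IDR rank 7586 and ranks of 6213, 5805, 11115 and 12104, within the highest peaks of replicates 1 and 2 only. The nearest summits left out lay 6170 bp from dpr13 and 6536 bp from dpr9.

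Among Beat genes, beat-Ib had a cluster of summits in its own introns. It spans 57302 bp (FBgn0028645, chr2L:15905134-15962435, minus strand) and held 8 IDR summits within 5506 bp near its 3' end, 7 in introns and 1, of rank 6211, in a coding exon. None of the 8 was within 1000 bp of the TSS of any other gene, the closest lying 3178 bp from that of the nested gene CG13244. They were at least 48725 bp from a beat-Ib TSS. The strongest, at 15912154, had IDR rank 1549 and ranks of 3383, 1362, 1156 and 1417 in replicates 1 to 4, and 7 of the 8 were covered by the highest peaks of all 4. Here too the 8 summits lay in 6 called regions. Of genes like beat-Ib in length, 23% had as many summits or more. Both beat-Vc summits lay past its 3' end toward Ugt37A3, a glycosyltransferase gene, 1985 and 68 bp from its TSS. The stronger had IDR rank 3862 and ranks of 3267, 3317, 4446 and 9839 in replicates 1 to 4, and the other IDR rank 6773. Neither was in the highest peaks of replicate 4. The gene for the motor axon receptor Beat-Ia had no IDR summit within 136255 bp of its body.

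**Figure D4:**
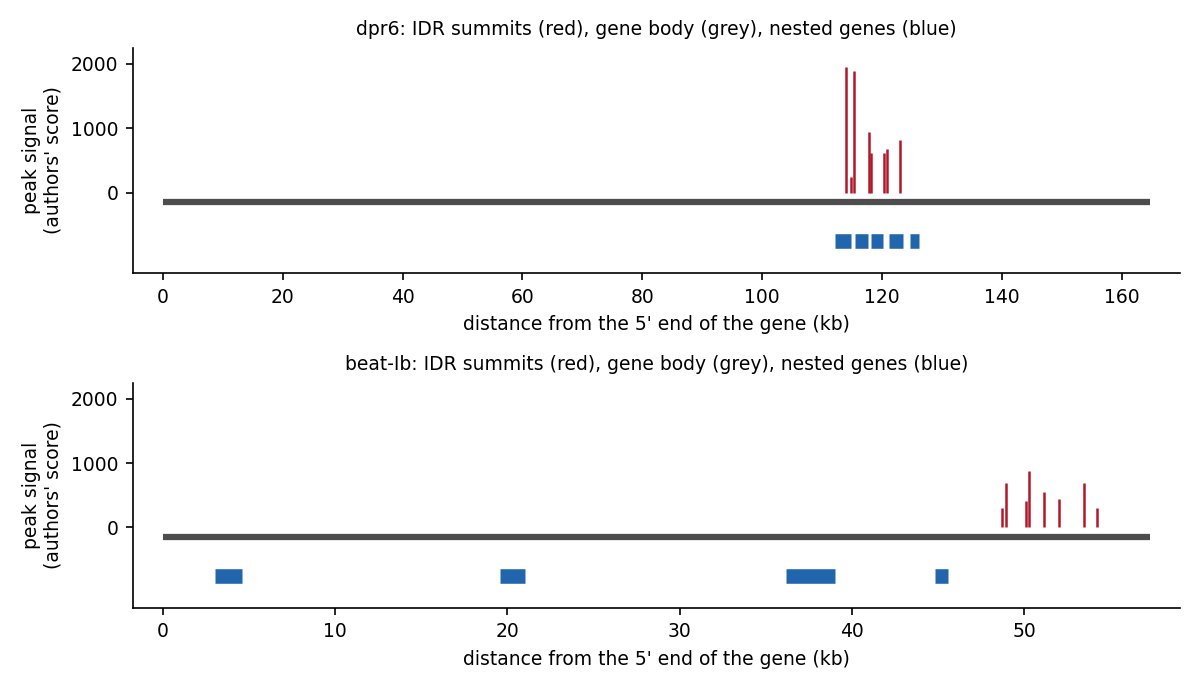
IDR summits (red lines, height by the authors' peak signal) along dpr6 and beat-Ib (grey bars), with nested protein-coding genes (blue), against distance from the 5' end of the gene in kb. The 8 dpr6 summits lie over the group of nested genes, and the 8 beat-Ib summits lie near the 3' end, outside the nested genes.

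Side genes had intronic summits in the lower part of the IDR list. The summit of side itself (FBgn0016061, chr3R:27375088-27437482, minus strand) lay in an intron at 27407253, 30229 bp from its TSS and 33059 bp from that of any other gene. It ranked 5706 in the IDR list and 5956, 6933, 8303 and 3285 in replicates 1 to 4, outside the highest peaks of replicate 3 alone. In side-IV (FBgn0038156, chr3R:13450590-13464184, plus strand) 2 intronic summits lay 2393 and 3554 bp from its TSS, with IDR ranks of 6313 and 6024. The one of rank 6024 had ranks of 5581, 3789, 7390 and 16689 in replicates 1 to 4. In side-III 1 intronic summit, of rank 6864, lay 10215 bp from its TSS, with ranks of 5162, 11175, 9103 and 8258, in the highest peaks of replicate 1 only. Its other 2 summits lay outside the gene, 6 and 210 bp from the TSS of CG2017, and the stronger had IDR rank 4808.

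Partners known to bind each other were set side by side. DIP-alpha held 1 IDR summit, its partner dpr6 held 8, all at nested genes, and dpr10 held none. DIP-gamma and dpr11 held none, while DIP-delta held 1 and dpr12 none. The ligand gene side held 1 and beat-Ia none, and side-IV held 2 with none at beat-IIa or beat-IIb. For side-VI, the partner of the Beat-V proteins, and for side-II and beat-VI, no IDR summit was counted, and beat-Vc, with its 2 summits past the 3' end, was the only Beat-V gene with any. Of the 11 pairs listed, only DIP-alpha with dpr6 had a summit at both genes.

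Most partners without an IDR summit had summits in the complete replicate lists, beat-Vb being the exception. The gene for Dpr10, the muscle ligand of DIP-alpha, held 8, 7, 10 and 7 summits in replicates 1 to 4. DIP-gamma held 10, 7, 13 and 4 and its partner dpr11 held 16, 18, 14 and 8, with replicate 4 lowest for both. Of these 3 genes only DIP-gamma had a summit among the highest peaks of any replicate, 1 in replicate 2. The mushroom body ligand gene dpr12 held 11, 9, 7 and 8 summits and beat-Ia held 3, 5, 3 and 3, while none was among the highest peaks. For beat-IIa the counts were 10, 8, 5 and 5 and for beat-IIb 11, 7, 6 and 3, lowest in replicate 4 for beat-IIb. For side-VI they were 14, 16, 14 and 6, while beat-Va held 1, 3, 3 and 0 and beat-Vb none. In all, 46 members (85.2%) had a summit in every complete list, beside 86.9% of like-length genes and 66.4% of all genes. The genes dpr21 and beat-Vb, 3.70% of members, had one in no complete list, beside 0.981% of like-length and 6.02% of all genes. In the highest peaks the members stood lower than both. There 9 members (16.7%) had a summit in all 4 replicates, beside 58.3% of like-length genes and 45.8% of all genes. A further 36 members (66.7%) had one in no replicate, beside 22.8% of like-length genes and 32.9% of all genes.

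Across the 36 summits, TAATTA lay within 100 bp of 10, or 27.8%, against 19.7% of all IDR summits, and CTTATC on either strand lay at 13, or 36.1%, against 35.4%. Both were found at 4 summits and neither at 17. Within 50 bp the shares were 19.4% and 12.3% for TAATTA and 22.2% and 21.8% for CTTATC. In the highest peaks of the replicates, the TAATTA share at members was 26.0% ± 1.73 (SD, n = 4). No share over all of those replicate peaks is given beside it, and the 19.7% belongs to the IDR list. The higher TAATTA share at members was not found among weaker pooled peaks. There it was 10.9% at members against 15.2% of the list for ranks 7910 to 15000, 12.7% against 14.4% for ranks 15001 to 22500 and 13.0% against 14.7% for ranks 22501 to 30000. With 36 IDR summits these shares are descriptions and no test was made. CTTATC was chosen because it had been found most often at summits of this same series, so its share is no independent evidence. Without dpr6 and beat-Ib, which together held 16 of the 36 summits, the CTTATC share was 25% and the TAATTA share 30%.

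IDR peaks at members recurred over the replicates nearly as often as others. Of the 36, 22 (61.1%) were covered by the highest peaks of all 4 replicates, against 65.3% of all IDR peaks, and all 36 by the complete lists of all 4. The shares covered by single replicates were 94.4%, 91.7%, 83.3% and 69.4%, lowest in replicate 4. Without dpr6 and beat-Ib, 35% were covered by the highest peaks of all 4. The IDR list was made from the same replicates, so this is no independent support.

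The weakest listed peaks were as frequent at members as at genes of like length, while over the complete lists members still held fewer summits. In the complete replicate lists, summits lay at 50, 47, 48 and 51 members. That is 92.6%, 87.0%, 88.9% and 94.4%, beside 90.8%, 89.4%, 89.3% and 98.6% of like-length genes and 76.9%, 74.0%, 75.4% and 89.8% of all genes. Along the pooled list, members held 0.667 summits per gene among ranks 1 to 7909, where like-length genes held 3.01. Among ranks 7910 to 15000 the means were 1.19 and 3.08, and among ranks 15001 to 22500 they were 2.33 and 3.57. Among ranks 22501 to 30000, the weakest, they were 3.56 and 3.51, so the ratio of members to like-length genes went from 0.221 to 1.01 along the list. Peaks with a q-value under 0.01 in the pooled list lay at 25 members, or 46.3%, against 63.2% of all genes and 78.5% of like-length genes. Of 382 pooled peaks at members outside the IDR list, 20.9% were overlapped in the complete lists of all 4 replicates, against 35.2% of all such peaks. These member peaks lay more in the weaker ranks, and peaks of like rank were not compared. Along ranks 7910 to 15000, 15001 to 22500 and 22501 to 30000, members had 64, 126 and 192 summits, and all genes 6622, 6622 and 6426. Per replicate, the ratio to like-length genes was 0.210 ± 0.0178 (SD, n = 4) in the highest peaks and 0.552 ± 0.0837 in the complete lists.

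**Figure D5:**
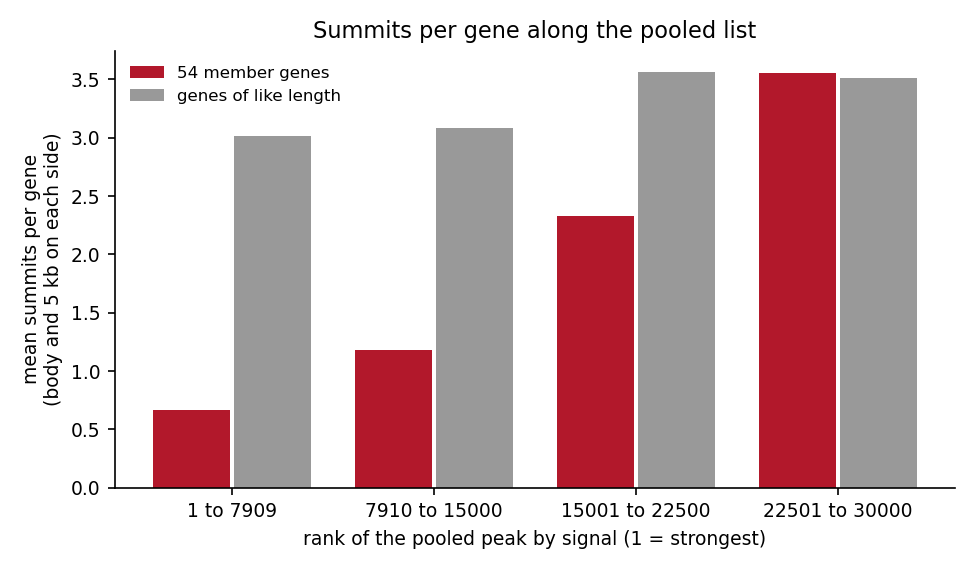
Mean number of pooled summits per gene, in the body and 5 kb on each side, for the 54 members (red) and their like-length genes (grey) in 4 ranges of rank by signal, from the strongest (left) to the weakest (right). Bars are means over genes of 1 pooled list and carry no error. Members rise from 0.667 to 3.56 while like-length genes stay between 3.01 and 3.57.

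Other surface genes of the immunoglobulin superfamily were examined beside the 4 families, with cDIP, whose product binds several Dpr and DIP proteins. Of these 21 genes 15 had an IDR summit, or 71.4%, against 65.6% of genes like them in length. That count was 10, 8, 8 and 11 without replicates 1, 2, 3 and 4, where like-length genes stood at 53.8% to 56.2%, above the 38.1% to 52.4% of these genes. Summits lay within 1000 bp of an own TSS in 4, Ama, Fas3, Nrg and cDIP, or 19.0%, also below the 37.4% of genes like them in length. The most summits, 10, lay in kirre, a gene of myoblast fusion that spans 394149 bp. Next came bdl with 5, all outside its body, and Fas3, an adhesion gene, with 4. With the body alone, 10 of the 21 had a summit, or 47.6%, against 45.9% of genes like them in length. The gene rst lies inside kirre, so its 1 summit was counted for both. Dscam2, Dscam3, Dscam4, fred, klg and sns had none. In the highest peaks of the replicates 14 or 15 of the 21 had a summit, while 10 to 17 of the 54 members did. The difference between the lists was not tested.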

How the data were processed

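ChIP-seq peaks were deposited on dm6 per replicate, pooled, and after IDR filtering. Per the deposited file lists, each replicate list was derived from that library's alignments with an input shared by all, and the IDR list from the replicate and pooled lists. No source used here names the aligner, caller or IDR threshold. Peaks were ranked within a list by the authors' signal value, treated as a score, and the deposited q-value (−log10) served to count peaks with q under 0.01. The IDR list equals the 7909 strongest pooled peaks.

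Genes came from Ensembl release 115 (BDGP 6.54) and sequence from RefSeq's Release 6 genome, within whose chromosome ends every peak lay. Like-length values are means over members of the value among the 100 non-member genes nearest in length, given as a description with no test. For the longest members the match is loose: for DIP-lambda, of 379081 bp, those genes ran from 90145 to 434041 bp. The sign-flip test over replicates was added after seeing the data. Overlap means at least 1 bp, and motifs were searched on both strands within 100 bp of a summit unless stated. The members, the lists and the CTTATC sequence were chosen with earlier results of these data known. The genes named are all members with an IDR summit, and others named with values were picked after those were seen. Counting was tested on simulated data. Scripts ran in Python 3.11.15 with pandas 2.3.3, scipy 1.17.1, numpy 2.4.6 and, for plots, matplotlib 3.10.9. Alternatives were other peak thresholds, windows, overlaps and assignments, and each replicate left out, for which the IDR list was cut down to peaks found among the highest ones in each of the other 3, without a new IDR run.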

Additional observations from a re-analysis of the deposited data

Results flagged for a closer look

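Of 74 measures compared over the 4 replicates, 7 had 1 replicate far from the other 3, where chance gives about 1 in 20 for measured values, and most of these rest on counts with ties. Among the highest peaks, 2 Side genes had a summit in replicate 3 against 3 in each other replicate. The complete list of replicate 4 held 5 summits at dpr7, on chromosome 4, and 2 at DIP-lambda, against 0 in the other replicates. Replicate 1 held 7 summits at DIP-theta against 3 in each other, and 14 at side-II against 8 or 9. Replicate 2 held 5 at beat-Ia against 3, and replicate 1 held 1 at side-VII against 2.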

How the results depend on the processing

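Members stayed below like-length genes in all 13 alternatives run for that difference, with values from -43.9 to -32.2 percentage points. Over the 7 main results, 36 recomputed values moved by more than the SD between replicates and 37 did not. The cause was not tested, though lists of other lengths and narrower windows change counts by construction. Without 1 replicate, the share of members with an IDR summit ranged from 13.0% to 22.2%, beside 43.9% to 46.1% of all genes. Summits per 100 kb of member genes ranged from 0.720 to 0.949. In the complete IDR list there were 1.18, beside 2.84 at the 21 related surface genes and 6.93 over all genes, which are much shorter. The TSS share ranged from 55.2% to 59.1%, the TAATTA share from 27.3% to 30.4% and coverage by every replicate from 61.1% to 80.6%. No shares over all peaks are given beside these TSS, TAATTA and coverage values. Among IDR peaks of above-median signal, 13.0% of members had a summit, a difference of -38.9 points from like-length genes, with 0.556 per 100 kb. Of those member summits 58.8% were near a TSS and 94.1% covered by every replicate. The shares over all such peaks are not given, so these values do not set members apart from other peaks. With all pooled peaks of q under 0.01, 46.3% of members had a summit, a difference of -32.2 points, with 2.19 per 100 kb. TAATTA lay at 19.4% and CTTATC at 28.4% of these member summits, against 18.4% and 30.2% of all such peaks. The gene body alone gave 11.1%, beside 18.1% of all genes, a difference of -38.7 points from like-length genes, and 0.833 per 100 kb. The nearest TSS gave 9.26%, a difference of -40.4 points, and 1 summit per called region 1.05 per 100 kb. A promoter of 500 bp gave a TSS share of 36.1%. A motif window of 50 bp gave 19.4% for TAATTA and 22.2% for CTTATC, beside 12.3% and 21.8% of all IDR summits. Coverage by every replicate was 33.3% with a 50% reciprocal overlap, 38.9% with summits within 100 bp and 100% in the complete lists. For these coverage values and the 500 bp promoter, the shares over all IDR peaks are not given. Of the alternatives chosen after seeing the data, leaving out dpr6 and beat-Ib gave 0.710 per 100 kb, 35% covered, TAATTA 30% and CTTATC 25%, and leaving out DIP-lambda, dpr21 and dpr7 gave 1.43 per 100 kb. Read depth is unknown, so a gene without a summit has no listed peak and is not shown to be unbound. No paired analysis was possible because there is 1 group.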

Other observations

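Of the 39 members without an IDR summit, 33 (84.6%) had a pooled peak of some strength, with a median of 7 over the 39. Of all genes without an IDR summit 44.2% had one, and of those like the 39 in length 70.4%. A pooled peak with q under 0.01 lay at 10 of the 39 (25.6%), beside 17.6% of all genes and 35.1% of like-length genes without an IDR summit. The Side gene side-V had the most, 20 pooled summits, none with q under 0.01, and 18, 18, 15 and 7 in the complete lists of replicates 1 to 4. In beat-IIIc 3 of 15 pooled summits had q under 0.01, and replicate 2 alone listed 1 of its summits among the highest peaks. No pooled summit lay at 6 members: dpr7, dpr21, DIP-epsilon, DIP-zeta, DIP-lambda and beat-Vb. These genes were picked out after their values were seen.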
